A study of Mus musculus with 24 samples.

Results

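Voltage-gated sodium channels, voltage-gated calcium channels with their auxiliary subunits, HCN channels, the sodium leak channel NALCN with its partners, and the calcium-release channels of the endoplasmic reticulum were examined in the medial prefrontal cortex (mPFC) of 24 mice. They are the protein-coding genes of the table named *Scn*, *Cacna1*, *Cacna2d*, *Cacnb*, *Hcn*, *Ryr*, *Itpr*, *Nalcn*, *Unc79* or *Unc80*, which gave 40 of 15456 genes. All 40 had a mean of at least 10 normalized counts and entered the tests, with 14974 genes in all. The mice were BALB/c mice of 11 postnatal weeks, 6 in each of 4 groups with 1 library per mouse. They were untreated controls, given vehicle (PBS) according to the methods, mice injected daily with duloxetine, which inhibits serotonin and norepinephrine reuptake, mice given the gut bacterium *Ruminococcus flavefaciens* by gavage, and mice given both. The study used male mice, and no stress protocol was applied, which limits what the groups can model.

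Channels of these families set the excitability of cortical neurons. Sodium channels start and carry the action potential, and calcium channels turn depolarization into calcium entry, which triggers transmitter release at terminals and signals to the nucleus in dendrites and cell bodies. HCN channels open on hyperpolarization and dampen dendritic inputs, and NALCN carries a steady sodium leak that holds the resting potential. Ryanodine and inositol trisphosphate (IP3) receptors release calcium from the endoplasmic reticulum. The pore of sodium and calcium channels is a single large alpha subunit, and the smaller beta and alpha2delta subunits control its gating and its delivery to the membrane.

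The values are normalized counts, that is, reads per gene divided by 1 size factor per mouse, and the reads recovered from them ranged from 12811413 to 15607343 per mouse. As the tissue label requires, all 7 excitatory neuron markers were present, led by *Camk2a* with a mean of 52794 normalized counts. One library stood apart from the others in the channel genes themselves, that is, in the values that the comparisons use. In *R. flavefaciens* mouse 9_3 the channel genes took 0.537% of all normalized counts, against 0.644% to 0.771% in the other mice. Their median log2 difference from the control means was -0.51 in this mouse. In the other 5 *R. flavefaciens* mice it lay between -0.19 and -0.01. Many of the counts and log2 fold changes for this group are therefore given with and without mouse 9_3. In bulk tissue, fewer cells of a type and less RNA per cell cannot be told apart.

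Levels of the channel genes per kb of transcript ranged widely, from 3.52 normalized counts per kb for *Scn9a*, of sensory neurons, to 1700 for *Itpr1*, an IP3 receptor, among the genes described here. Among the pore-forming sodium channels, *Scn2a*, of excitatory neurons, led with 764 normalized counts per kb. *Scn8a*, of the axon initial segment and nodes, had 588. *Scn1a*, best known from fast-spiking interneurons, had 209, and the mainly embryonic *Scn3a* had 80.4. *Scn7a* and *Scn9a*, which are used mostly outside the cortex, had 16.7 and 3.52 normalized counts per kb. Of the beta subunits *Scn2b* had 987, *Scn3b* 483 and *Scn4b* 114.

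Of the presynaptic calcium channels, *Cacna1a*, the P/Q-type pore, had 416 normalized counts per kb. *Cacna1e*, the R-type pore, had 361, and *Cacna1b*, the N-type pore, had 228. The L-type pores, which couple activity to transcription, were lower, with 116 normalized counts per kb for *Cacna1c* and 91.8 for *Cacna1d*. Among the T-type pores, which open at low voltage, *Cacna1g* had 258, *Cacna1i* 238 and *Cacna1h* 139 normalized counts per kb. *Cacnb3* was the leading beta subunit with 1426 normalized counts per kb, and *Cacna2d1*, a target of gabapentin, the leading alpha2delta subunit with 541.

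*Hcn2* was the most abundant HCN channel, with 615 normalized counts per kb against 73.5 for *Hcn3* and 15.2 for *Hcn4*. Of the leak channel complex, the large scaffold *Unc80* had 500.3 normalized counts per kb, the pore *Nalcn* 280.5 and *Unc79* 136. Among the release channels *Itpr1*, the neuronal IP3 receptor, had 1700 and *Ryr2* 284 normalized counts per kb. *Ryr1*, the skeletal muscle form, had 10.5 and *Itpr3* 9.39. In the plot of levels by family the 4 group means of a gene lay close together on this scale.

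**Figure D1:**
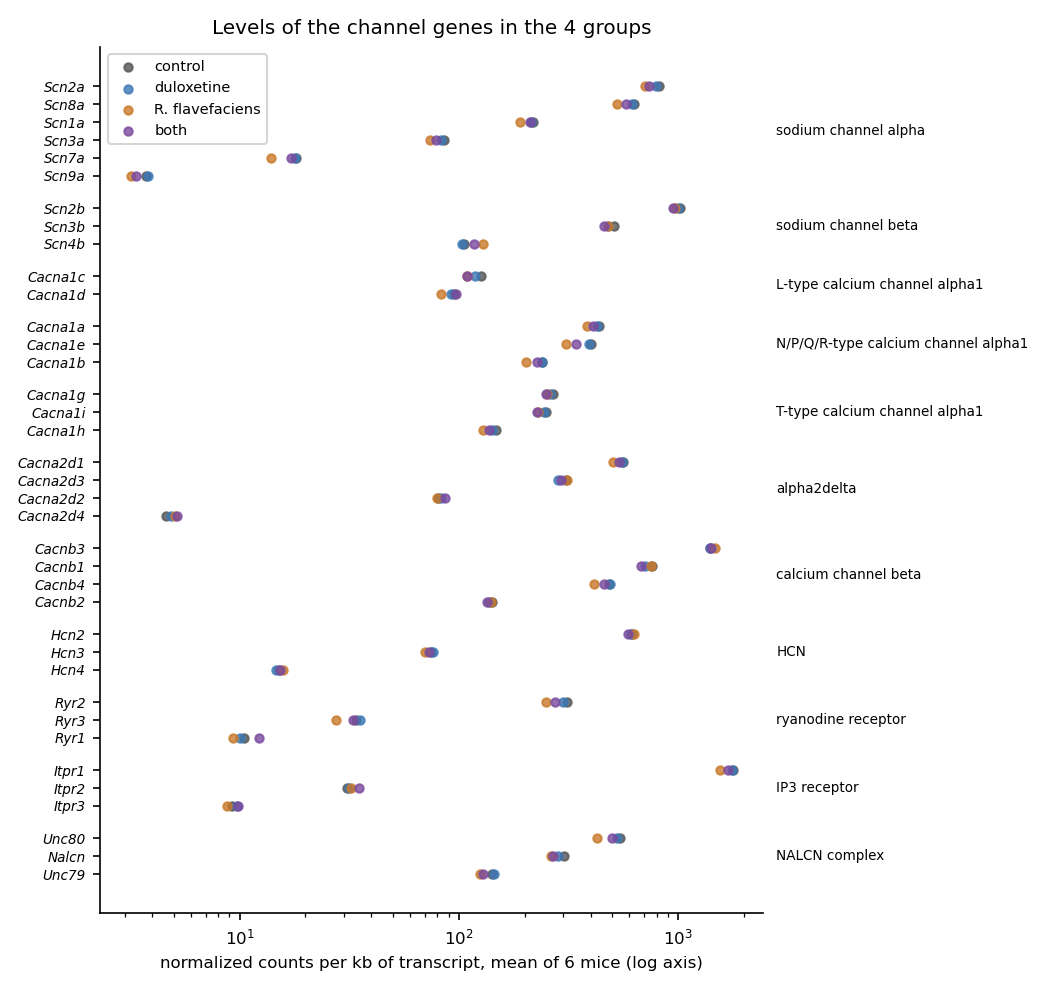
Mean normalized counts per kb of transcript (log axis) of 37 of the 40 channel genes, by family, with 1 point for each group mean of 6 mice. Levels run from 3.52 for *Scn9a* to 1700 for *Itpr1*, and the differences between groups are small beside those between genes.

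In *R. flavefaciens* treated mice most channel genes had lower means than in controls, and whether any difference passed the adjusted threshold depended on the test and on single mice. Of the 40 genes, 31 had a negative log2 fold change, and the median was -0.18, with 0.003 over all 14974 genes. In limma, 16 channel genes were lower at an unadjusted p-value under 0.05, where 10.8% of all genes were, and 0 were higher, where 8.86% were. At an adjusted p-value under 0.05 (limma, Benjamini-Hochberg) 0 of the 40 were called, beside 0.0267% of all genes. DESeq2 on the recovered reads called 4 of them, all lower, beside 1.62% of all genes, and edgeR called 0, beside 0.0267%. Limma with the first number of the mouse labels as a random block called 3, all lower, beside 0.781% of all genes. These numbers are nested within the groups, and the fitted correlation of mice that share one was -0.045. Without *R. flavefaciens* mouse 9_2 limma called 6, all lower, beside 2.42%. Without mouse 9_3, limma placed 10 channel genes at an unadjusted p-value under 0.05 and lower (6.13% of all genes), and the median log2 fold change was -0.10.

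The 4 genes that DESeq2 called are *Cacna1e*, *Unc80*, *Ryr2* and *Cacna1b*. They are also the 4 channel genes in which all 6 *R. flavefaciens* mice lay below every control mouse, a separation seen in 0.835% of all genes.

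*Cacna1e* (ENSMUSG00000004110.16) encodes the pore of R-type calcium channels, which act at presynaptic terminals and dendritic spines, and spans bases 154390731 to 154884501 of chromosome 1 (GRCm38, minus strand). In controls its lowest, median and highest normalized counts were 5745, 5919.7 and 6265. In *R. flavefaciens* mice they were 2929, 4862 and 5575. The groups did not overlap, and the lowest value was that of mouse 9_3, with 4217 as the next. The log2 fold change was -0.40 (standard error, SE, 0.10). Adjusted p-values were 0.0727 (limma) and 0.0224 (DESeq2). Without mouse 9_3 the log2 fold change was -0.28, with an adjusted p-value of 0.16 in limma and 0.0446 in DESeq2.

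*Unc80* (ENSMUSG00000055567.18), the scaffold that ties the NALCN pore to its regulators, spans bases 66468367 to 66699148 of chromosome 1 (plus strand). Its normalized counts were 7098, 7412 and 7747 (lowest, median and highest) in controls and 3633, 6110.0 and 6915 in *R. flavefaciens* mice. Here too the groups were separate, with mice 7_2, 8_4 and 9_3 well below the other 3. The log2 fold change was -0.38 (SE 0.098). Adjusted p-values were 0.0727 (limma) and 0.0248 (DESeq2). Without mouse 9_3 the log2 fold change was -0.25, with an adjusted p-value of 0.132 in limma and 0.0258 in DESeq2.

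*Ryr2* (ENSMUSG00000021313.16), the main ryanodine receptor of heart and cortex, spans bases 11553102 to 12106945 of chromosome 13 (minus strand). Controls had 5014, 5146 and 5615 normalized counts (lowest, median and highest), and *R. flavefaciens* mice 2695.5, 4457 and 4712. The lowest control thus stood above the highest treated mouse, and mouse 9_3 was far below the other 5. The log2 fold change was -0.34 (SE 0.091). Adjusted p-values were 0.0727 (limma) and 0.0257 (DESeq2). Leaving out mouse 9_3 gave -0.22 on the log2 scale, with an adjusted p-value of 0.155 in limma and 0.0258 in DESeq2.

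*Cacna1b* (ENSMUSG00000004113.18), the N-type pore that supports transmitter release, spans bases 24603887 to 24763152 of chromosome 2 (minus strand). It had 2208, 2329.6 and 2505 normalized counts (lowest, median and highest) in controls and 1477, 2079 and 2159 in *R. flavefaciens* mice. The gap between the groups was narrow, with the highest treated mouse just under the lowest control. The log2 fold change was -0.26 (SE 0.073). Adjusted p-values were 0.0806 (limma) and 0.0342 (DESeq2). Without mouse 9_3 the log2 fold change was -0.17, and the adjusted p-value was 0.223 in limma and 0.111 in DESeq2.

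**Figure D2:**
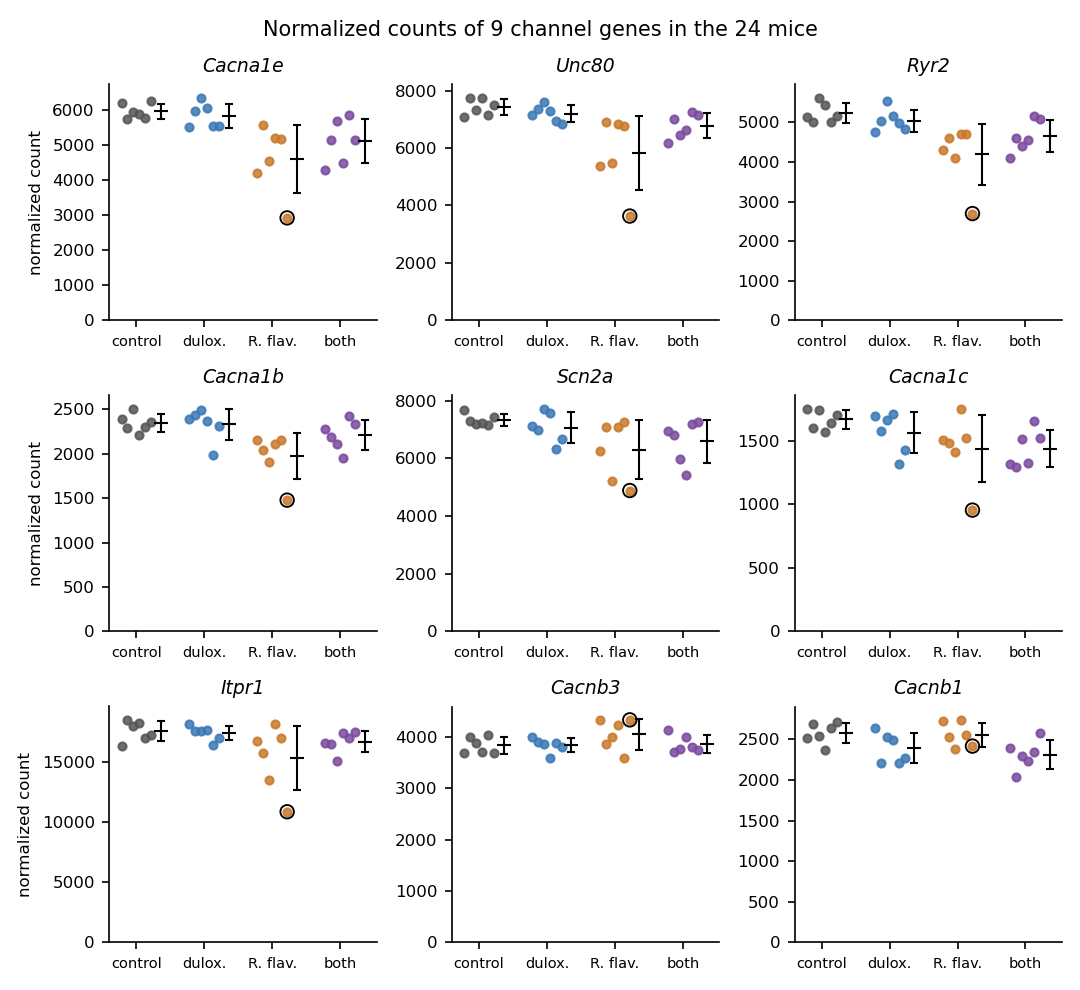
Normalized counts of 9 channel genes in each of the 24 mice (points), with mean and SD of the 6 mice of each group (bars) and mouse 9_3 ringed. *Cacna1e*, *Unc80*, *Ryr2* and *Cacna1b* have all 6 *R. flavefaciens* mice below every control, whereas those of *Cacnb1* and *Cacnb3* overlap the controls.

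The 250 bases upstream of a start site of these 4 genes are given because they are the channel genes in which the groups were separate, and are from RefSeq on GRCm38.p6. The window of *Cacna1e* (chr1:154725921-154726170, minus strand) lies within the span of the gene. Those of *Unc80* (chr1:66467684-66467933, plus strand), *Ryr2* (chr13:12106946-12107195, minus strand) and *Cacna1b* (chr2:24763153-24763402, minus strand) lie outside the span that the annotation of the table gives. Capitals mark the GC box (GGGCGG), the CCAAT box (CCAAT), the cAMP response half-site (TGACG), the TATA box (TATAAA) and the E-box (CACGTG), searched on both strands and each written as it stands in the printed strand.
Cacna1e: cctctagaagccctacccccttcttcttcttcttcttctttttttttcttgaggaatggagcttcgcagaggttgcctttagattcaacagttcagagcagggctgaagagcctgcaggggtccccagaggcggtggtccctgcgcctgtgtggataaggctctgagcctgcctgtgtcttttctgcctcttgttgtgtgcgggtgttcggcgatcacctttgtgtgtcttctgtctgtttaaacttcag
Unc80: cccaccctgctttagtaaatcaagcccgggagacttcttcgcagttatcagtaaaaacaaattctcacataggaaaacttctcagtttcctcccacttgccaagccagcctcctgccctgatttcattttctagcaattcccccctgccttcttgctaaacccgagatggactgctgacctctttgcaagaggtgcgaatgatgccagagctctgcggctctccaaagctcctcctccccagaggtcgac
Ryr2: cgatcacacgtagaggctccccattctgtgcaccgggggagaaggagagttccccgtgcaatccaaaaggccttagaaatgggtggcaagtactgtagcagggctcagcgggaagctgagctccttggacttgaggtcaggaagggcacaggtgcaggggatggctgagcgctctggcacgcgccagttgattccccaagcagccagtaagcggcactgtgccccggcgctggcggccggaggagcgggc
Cacna1b: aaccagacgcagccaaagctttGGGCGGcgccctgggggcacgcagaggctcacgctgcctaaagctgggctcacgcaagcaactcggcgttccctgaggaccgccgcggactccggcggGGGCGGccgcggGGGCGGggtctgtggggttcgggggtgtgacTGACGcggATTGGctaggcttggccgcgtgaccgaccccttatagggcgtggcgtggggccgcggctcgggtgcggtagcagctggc
The 4 windows share none of these motifs. That of *Cacna1b* holds 3 GC boxes, 1 CCAAT box and 1 cAMP response half-site, and the other three windows hold 0 of the 5 motifs. *Cacna1b* has 29 CpG dinucleotides at 72% G and C, *Ryr2* 14 at 63.2%, and *Cacna1e* and *Unc80* 6 each. Promoters were found for 28 of the 40 genes, with 38 start sites. Of these 38, 42.1% held a GC box, against 32.7% of 32851 promoters of the same table, while 23.7% held a CCAAT box (33.8% of all), 13.2% the half-site (17.8%), 5.26% a TATA box (12.4%) and 2.63% the E-box (6.02%). The median number of CpG dinucleotides was 11.5 in the channel gene promoters and 6 in all.

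Of the 26 genes that encode pore-forming subunits 13 were lower at an unadjusted p-value under 0.05, beside 10.8% of all genes. Of the 14 others 3 were, *Cacnb4*, *Unc79* and *Unc80*. Without mouse 9_3 these counts were 8 and 2, beside 6.13% of all genes, and *Unc79* was no longer among them. The median transcript was 9275 bases in the first set and 4819 in the second, and the difference between the sets was not tested. Of the 7 sodium channel pores 6 had a negative log2 fold change in *R. flavefaciens* mice and 3 were lower at an unadjusted p-value under 0.05, also 3 without mouse 9_3. *Scn8a* had -0.27 (-0.17 without this mouse), *Scn2a* -0.23 and *Scn3a* -0.22. *Scn2a* had 7171, 7261 and 7696 normalized counts (lowest, median and highest) in controls and 4888, 6685 and 7271 in *R. flavefaciens* mice, of which 5 lay below every control. The 4 beta subunits had a median log2 fold change of 0.04. Of them 0 were lower or higher at an unadjusted p-value under 0.05, beside 10.8% and 8.86% of all genes. *Scn3b* had 1961, 2117.5 and 2343 normalized counts in controls and 1833, 1959 and 2213 in treated mice, overlapping ranges, with a log2 fold change of -0.09 (SE 0.067).

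Both L-type pores and all 3 N, P/Q and R-type pores were lower at an unadjusted p-value under 0.05, beside 10.8% of all genes. Without mouse 9_3, however, neither L-type pore was, and 2 of the 3 were, beside 6.13% of all genes. *Cacna1c*, the main L-type pore of brain and heart, had 1568, 1673 and 1746 normalized counts in controls and 954, 1491 and 1751 in *R. flavefaciens* mice. In 5 of the 6 treated mice it was below every control and in the other one above them all, and its log2 fold change was -0.24 (SE 0.096), or -0.12 without mouse 9_3. *Cacna1d* had -0.20 and *Cacna1a* -0.18, with -0.11 and -0.12 when this mouse was left out. *Cacna1a* had 3138, 3497 and 3830.2 normalized counts in controls and 2395, 3124 and 3431 in treated mice, so that the ranges overlapped. Of the 3 T-type pores 1 was lower at an unadjusted p-value under 0.05, *Cacna1h*, with -0.20, and 0 were without mouse 9_3. *Cacna1g* had 2116, 2234 and 2416 normalized counts in controls and 1851, 2162 and 2269 in treated mice, with -0.09 (SE 0.072) and -0.05 without mouse 9_3.

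The auxiliary calcium channel subunits were tested in the same fit. Of 4 alpha2delta subunits 0 were lower or higher at an unadjusted p-value under 0.05, beside 10.8% and 8.86% of all genes. Their median log2 fold change was -0.002. *Cacna2d1* had 3940.3, 4143 and 4484 normalized counts in controls and 2914, 3945 and 4554 in *R. flavefaciens* mice, and *Cacna2d3* 1073, 1130.4 and 1202 against 964, 1139 and 1354. In both the treated mice reached above and below the controls, and the log2 fold change of *Cacna2d1* was -0.17, or -0.10 without mouse 9_3. Of 4 beta subunits *Cacnb4*, mutated in the epileptic lethargic mouse, was lower at an unadjusted p-value under 0.05, with -0.24 (SE 0.082). It was so without mouse 9_3 as well, beside 6.13% of all genes. *Cacnb3* had 3683, 3793 and 4042 normalized counts in controls and 3583, 4109 and 4332 in treated mice, with a log2 fold change of 0.08.

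Of the HCN channels described here, *Hcn2* stood at 0.03 (SE 0.069), *Hcn3* at -0.09 and *Hcn4*, the pacemaker form of the heart, at 0.03. *Hcn2* had 1719, 1985 and 2237 against 1859, 1996 and 2253, with no separation. All 3 genes of the leak channel complex were lower at an unadjusted p-value under 0.05, beside 10.8% of all genes. The values were -0.38 for *Unc80*, -0.20 for *Nalcn* and -0.19 for *Unc79*. Without mouse 9_3 only *Unc80* of the 3 was lower at this level, beside 6.13% of all genes, and *Nalcn* had -0.13. *Unc79* had 1171, 1244 and 1389 normalized counts in controls and 805, 1149 and 1239 in treated mice, and without mouse 9_3 its log2 fold change was -0.10.

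Of the release channels *Ryr2* and *Itpr1* were lower at an unadjusted p-value under 0.05, and *Ryr3*, *Ryr1*, *Itpr2* and *Itpr3* were not. Over all genes 10.8% were lower at this level, and 6.13% without mouse 9_3. *Itpr1* had 16354, 17682 and 18539.9 normalized counts in controls and 10885, 16288 and 18172 in *R. flavefaciens* mice, of which 3 lay below every control, with a log2 fold change of -0.22 (SE 0.081). It was -0.12 without mouse 9_3, still at an unadjusted p-value under 0.05 (0.0487). *Ryr3*, a ryanodine receptor of low level, stood at -0.40 with an SE of 0.20, and at -0.26 without mouse 9_3. *Itpr2*, an IP3 receptor of glia, stood at 0.06.

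**Figure D3:**
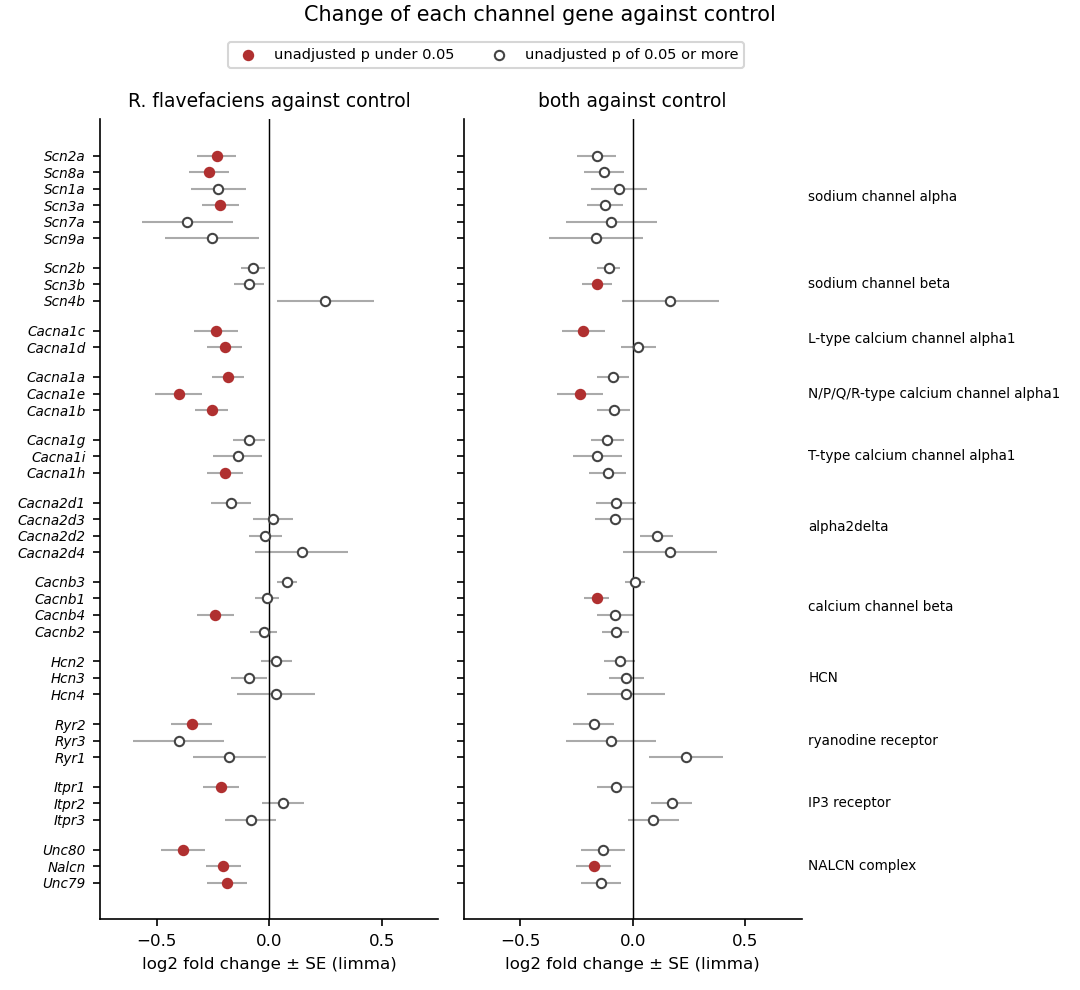
Log2 fold change and standard error (limma) of 37 of the 40 channel genes for *R. flavefaciens* against control (left) and both treatments against control (right), by family, with filled points for an unadjusted p-value under 0.05. On the left 15 points are filled and on the right 5, all of them below 0, and no point passed the adjusted threshold.

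The fold changes of the channel genes went with the length of their transcripts. Their transcripts have a median of 8384.5 bases, against 3179 over the genes tested. Across all genes of known length, the log2 fold change for *R. flavefaciens* against control fell with length (Spearman's rho -0.484 over 14958 genes, which are not independent replicates). The median log2 fold change was 0.16 for genes of up to 1000 bases, -0.15 for those between 8000 and 10000 bases and -0.20 for longer ones. Within the 40 channel genes rho was -0.699. The 20 shorter ones, up to 8383 bases, had a median log2 fold change of -0.05, with 4 lower at an unadjusted p-value under 0.05. The 20 longer ones had -0.23, with 12 lower, where 10.8% of all genes were lower. Without mouse 9_3 the medians were -0.02 and -0.14, with 1 and 9 lower, beside 6.13% of all genes. In that setting rho was -0.371 over all genes and -0.671 within the channel genes.

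After a loess trend on transcript length was taken off in each mouse, 3 channel genes were lower at an unadjusted p-value under 0.05, beside 5.25% of all genes. They were *Cacna1e* (-0.19), *Unc80* (-0.18) and *Ryr2* (-0.12). The median log2 fold change of the 40 genes was then -0.06, and 1 gene, *Itpr2*, was higher at this level, beside 5.46% of all genes, with 0.24. With the trend off and mouse 9_3 left out as well, the same 3 genes had -0.15, -0.13 and -0.09, and 3.39% of all genes were lower. Their adjusted p-values (limma) were 0.235, 0.235 and 0.298 with the trend off. Within the channel genes rho with length was -0.417 after the trend was taken off.

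**Figure D4:**
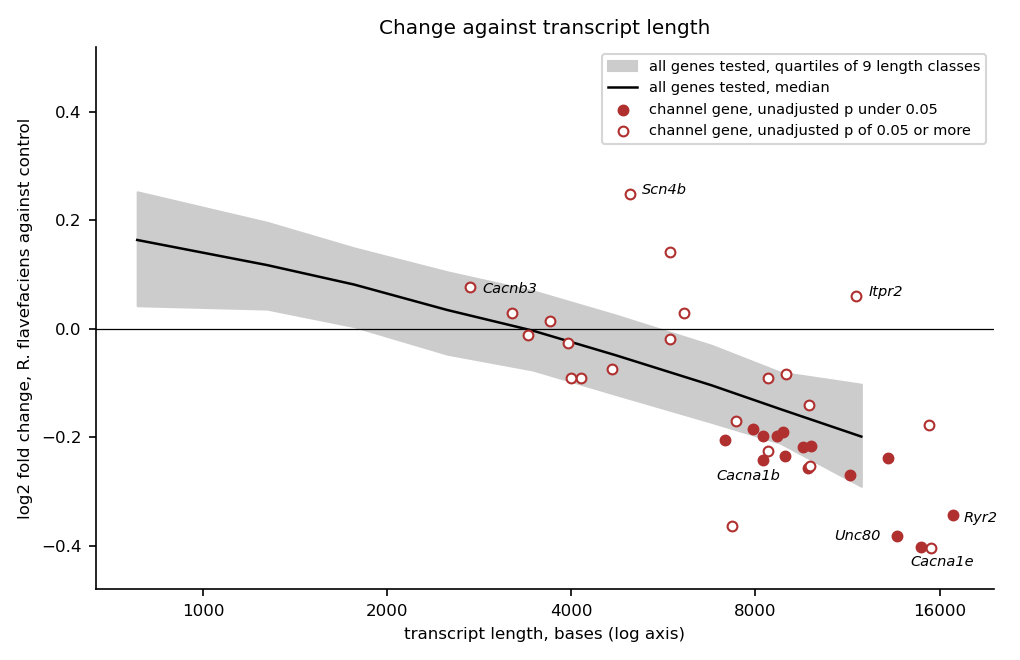
Log2 fold change for *R. flavefaciens* against control by transcript length (log axis), with the median and quartiles of all genes tested in 9 length classes (line and band) and 37 of the 40 channel genes (points, filled for an unadjusted p-value under 0.05). The line falls from 0.16 to -0.20, and *Cacna1e* (14921 bases), *Unc80* (13613 bases) and *Ryr2* (16814 bases) lie at the lower right.

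The dependence on length differed between single mice. For each mouse Spearman's rho was taken between transcript length and its log2 values after the mean of each gene was taken off. It lay between 0.11 and 0.257 in the 6 controls and between -0.573 and 0.124 in the 6 *R. flavefaciens* mice, with mouse 9_3 the lowest of all 24. Mice 7_2 and 8_4, also of this group, had -0.32 and -0.244. The same 3 mice had the 3 lowest *Cacna1e* and *Unc80* values of their group. With the length trend off, the median of the channel genes against the control means was -0.15 in mouse 9_3 and between -0.10 and 0.07 in the other 5. In mice given both treatments it was between -0.17 and 0.04. What part the trend has in the differences between groups was not tested.

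**Figure D5:**
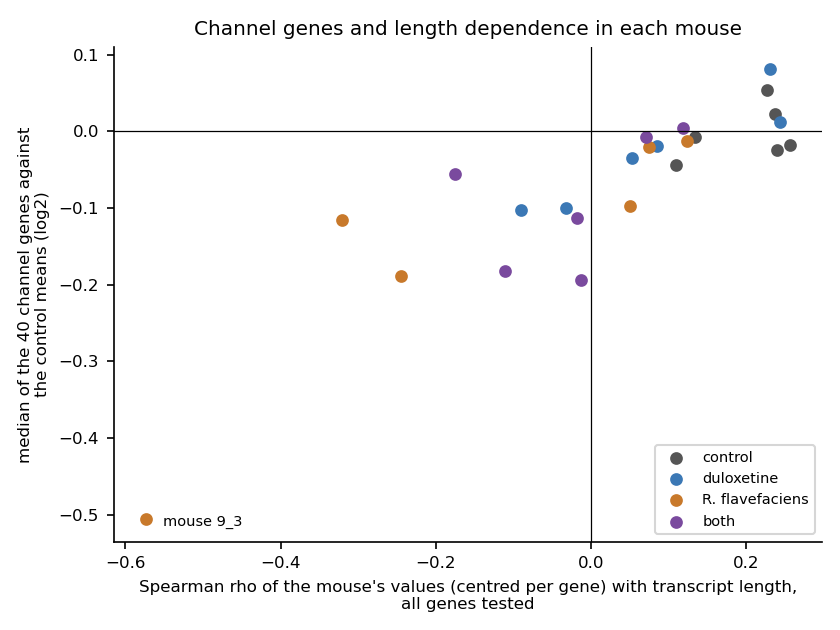
Median log2 difference of the 40 channel genes from the control means (vertical) and Spearman's rho of a mouse's values with transcript length over all genes (horizontal), 1 point per mouse. Mouse 9_3 lies alone at -0.51 and -0.573, and the controls lie at the upper right, with rho from 0.11 to 0.257.

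In mice given both treatments the channel genes were again mostly under the control means. Of the 40 genes 31 had a negative log2 fold change, with a median of -0.09. Over all genes tested, the median log2 difference from the control means lay between -0.0013 and 0.0086 in these mice. In limma 5 were lower at an unadjusted p-value under 0.05, beside 8.73% of all genes, and 0 were higher, beside 8.08%. Limma called 0 after adjustment (p under 0.05), beside 0.1% of all genes. DESeq2 also called 0, beside 1.45% of all genes, and edgeR 0, beside 0.114%. In 0 channel genes did all 6 mice lie below every control, as they did in 1.16% of all genes. Mouse 9_3 belongs to neither group, yet it enters the variance of the joint fit, and with it left out 9 genes were lower at an unadjusted p-value under 0.05, beside 10.8% of all genes. Without mouse 12_2, which was given both treatments, 1 gene was, beside 6.12%, and after quantile normalization 1, beside 6.6%.

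The 5 genes were *Cacna1e*, *Cacna1c*, *Nalcn*, *Scn3b* and *Cacnb1*, and the last 2 were not among the 16 of *R. flavefaciens* alone. *Cacna1e* had 4290.2, 5157 and 5878 normalized counts (lowest, median and highest) in mice given both, overlapping the controls, and its log2 fold change against control was -0.23 (SE 0.10, limma adjusted p = 0.256). *Scn3b*, a sodium channel beta subunit, had 1961, 2117.5 and 2343 normalized counts in controls and 1509.5, 1969 and 2107 in mice given both, with -0.16 (SE 0.067). Its lowest value was that of mouse 12_2, without which the log2 fold change was -0.09 and no longer at an unadjusted p-value under 0.05. *Cacna1c* had 1295.5, 1419 and 1656 in these mice, with -0.22 (SE 0.096), and -0.20 without mouse 12_2.

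*Cacnb1*, the beta subunit best known from skeletal muscle and also made in brain, had the smallest p-value of this comparison. Its normalized counts were 2372.5, 2589.9 and 2709.5 (lowest, median and highest) in controls, 2214, 2383 and 2642 with duloxetine, 2388, 2548 and 2742 with *R. flavefaciens*, and 2037, 2321 and 2581 with both. All these ranges overlap, and both groups given duloxetine had the lower medians. The log2 fold change of both against control was -0.16 (SE 0.055, limma adjusted p = 0.169). For duloxetine averaged over *R. flavefaciens* it was -0.13 (SE 0.039, limma adjusted p = 0.104).

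Against mice given duloxetine alone, those given both had a median log2 fold change of -0.06 over the 40 genes, and leaving out each mouse in turn gave from -0.09 to -0.04, the latter without mouse 12_2. In limma 0 channel genes were lower at an unadjusted p-value under 0.05 (2.88% of all genes), and 0 were called at an adjusted p-value under 0.05 (0%). With mouse 9_3 out of the joint fit 4 were lower at the unadjusted level, beside 4.11% of all genes. *Unc79* and *Cacna1e* were among the 3 genes with the smallest p-values. *Unc79* had 1148, 1299 and 1413 normalized counts with duloxetine and 982, 1142 and 1357 with both, a log2 fold change of -0.17 (SE 0.089). For *Cacna1e* it was -0.20 (SE 0.10). Both adjusted p-values were 0.818 in limma.

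Averaged over both duloxetine states, *R. flavefaciens* had a median log2 fold change of -0.12 over the channel genes (-0.08 without mouse 9_3), and 15 were lower at an unadjusted p-value under 0.05, beside 10.4% of all genes. Limma called 0 of them at an adjusted p-value under 0.05 (0.0267% of all genes). DESeq2 called 5, all lower, beside 1.91% of all genes, among them the 4 above, with DESeq2 log2 fold changes from -0.28 for *Cacna1e* to -0.16 for *Cacna1b*. Without mouse 9_3, 14 channel genes were lower at an unadjusted p-value under 0.05, beside 8.01% of all genes, and DESeq2 called 4, namely *Cacna1e*, *Unc80*, *Ryr2* and *Cacna1b*, beside 1.24%. With the length trend off, 5 were lower at an unadjusted p-value under 0.05, beside 6.63% of all genes.

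Mice given both treatments were also set against those given *R. flavefaciens* alone. Here 4 channel genes were higher at an unadjusted p-value under 0.05, beside 9.76% of all genes, and 1 was lower, beside 9.9%. The higher ones were *Cacna1d*, *Unc80*, *Ryr1* and *Cacna1b* and the lower one *Cacnb1*. *Unc80* had 6188, 6811 and 7266 normalized counts with both treatments, above the 3 lowest *R. flavefaciens* mice in every mouse, and a log2 fold change of 0.25 (SE 0.098, limma adjusted p = 0.16). Without mouse 9_3 it was 0.12 (limma adjusted p = 0.325), and *Cacna1d* went from 0.22 to 0.13 and *Cacna1b* from 0.17 to 0.09. Limma called 0 channel genes at an adjusted p-value under 0.05, beside 2.23% of all genes. Without mouse 9_3, 2 were higher (8.12% of all genes) and 1 was lower (8.03%) at an unadjusted p-value under 0.05.

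The interaction tests whether duloxetine and *R. flavefaciens* together differ from the sum of their single effects. At an unadjusted p-value under 0.05, 3 channel genes had a positive interaction (3.86% of all genes), *Cacna1d*, *Unc80* and *Ryr1*, and 0 a negative one (3.67%). *Cacna1d* had 804, 819 and 864 normalized counts in controls, 522, 739 and 835 with *R. flavefaciens*, and 738, 820 and 978.5 with both. Its interaction on the log2 scale was 0.27 (SE 0.11, limma adjusted p = 0.639) and 0.18 without mouse 9_3. That of *Unc80* was 0.30 and, without this mouse, 0.17. In that setting 2 channel genes had a positive interaction at an unadjusted p-value under 0.05, beside 3.33% of all genes. After adjustment the interaction was called for 0 channel genes and 0% of all genes. With the length trend off, 0 channel genes had an interaction of either sign at an unadjusted p-value under 0.05. In that setting 3.21% of all genes had a negative one.

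For duloxetine alone against control the median log2 fold change of the channel genes was -0.03, and it ranged from -0.058 without mouse 5_4 to -0.012 without mouse 6_3. In limma 0 of 40 were lower at an unadjusted p-value under 0.05 (1.63% of all genes), 0 were higher (2.2%), and 0 were called at an adjusted p-value under 0.05, as were 0% of all genes. The smallest limma p-values were those of *Cacnb1*, with -0.11 (SE 0.055), *Cacna2d3*, with -0.11 (SE 0.088), and *Scn3b*, with -0.08 (SE 0.067). Without control mouse 1_1 the log2 fold change of *Scn3b* was -0.053. *Cacna2d3* had 943, 1057 and 1142 normalized counts with duloxetine and *Scn3b* 1826, 2043 and 2094, ranges that overlap those of the controls. *Nalcn* had 2083, 2169 and 2233 normalized counts in controls and 1809, 2051 and 2139 with duloxetine, and 5 of the 6 duloxetine mice lay below every control. Its log2 fold change was -0.09 (SE 0.077). An exact permutation test of its log2 values gave an unadjusted p = 0.0108 (two-sided), the smallest of the 40 channel genes in this comparison, and limma, which shares 1 estimate of the spread over the 4 groups, gave an unadjusted p = 0.249. For duloxetine averaged over *R. flavefaciens*, limma called 0 channel genes at an adjusted p-value under 0.05, beside 1.03% of all genes.

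Genes whose products work with these channels were read from 6 lists. For *R. flavefaciens* against control their counts stand beside 10.8% of all genes lower and 8.86% higher at an unadjusted p-value under 0.05, and beside 6.13% and 5.38% without mouse 9_3. Of 12 sodium channel partners and axon initial segment genes, 11 had a negative log2 fold change, 6 were lower at this level (4 without mouse 9_3) and 0 were higher. *Ank3*, ankyrin G, which anchors sodium channels at the axon initial segment, had 7647, 7969 and 8373 normalized counts in controls and 4342, 6615 and 7487 in treated mice, with no overlap, as in 0.835% of all genes. Its log2 fold change was -0.36 (limma adjusted p = 0.0727). *Nrcam*, an adhesion molecule of nodes, had -0.26, and its highest treated mouse reached 6888 against a lowest control of 6887. With the length trend off, 3 of the 12 were lower at an unadjusted p-value under 0.05, beside 5.25% of all genes.

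All 10 genes of calcium export at the plasma membrane had a negative log2 fold change, 4 of them at an unadjusted p-value under 0.05, beside 10.8% of all genes. Without mouse 9_3 this count was 3 (6.13% of all genes), and with the length trend off it was also 3 (5.25%). *Slc8a1*, the sodium calcium exchanger NCX1, had 861, 1031 and 1113 normalized counts in controls and 208, 729 and 854 in *R. flavefaciens* mice, again without overlap. Its log2 fold change was -0.76 (limma adjusted p = 0.0806) and -0.46 without mouse 9_3, and its transcript has 18464 bases. *Atp2b4*, a plasma membrane calcium pump, had -0.37.

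In the other 4 lists the counts at an unadjusted p-value under 0.05 stand beside the same 10.8% lower and 8.86% higher of all genes. Of 17 calcium channel partners 2 were lower and 3 higher (1 and 2 without mouse 9_3), with *Rims2*, a presynaptic active zone protein that binds calcium channels, at -0.23 and *Cacng2*, or stargazin, a partner of AMPA receptors, at 0.15. Of 5 tested HCN and NALCN partners 2 were lower and 0 higher, *Pex5l* (TRIP8b, which sorts HCN channels) at -0.26 and *Nedd4*, a ubiquitin ligase, at -0.12. Without mouse 9_3 these had -0.17 and -0.08, and 1 of the 5 was lower. Of 19 tested genes for calcium store release and refilling 2 were lower and 2 higher (1 and 0 without mouse 9_3), with *Atp2a2*, the SERCA2 pump, at -0.18 (-0.11 without this mouse) and *Jph1*, a junctophilin, at -0.19. Of 11 genes for mitochondrial calcium uptake 0 were lower and 3 higher (0 and 1 without mouse 9_3), and *Smdt1*, the EMRE subunit of the uniporter, had 0.24 and *Micu2*, its gatekeeper, 0.16. With the length trend off, where 5.25% of all genes were lower and 5.46% higher, the counts lower and higher were 2 and 2 in calcium channel partners, 1 and 0 in HCN and NALCN partners, 0 and 1 in store genes and 0 and 1 in mitochondrial genes. *Smdt1* then had 0.09, *Micu2*, *Atp2a2*, *Jph1* and *Nedd4* no longer passed, and *Homer2*, a scaffold of release channels that was named after its values were seen, had 0.23. The median transcript was 2219 bases in the mitochondrial list and 6195.5 in the export list.

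Markers of cell types were read beside these results for *R. flavefaciens* against control. Their counts at an unadjusted p-value under 0.05 also stand beside 10.8% of all genes lower and 8.86% higher, and beside 6.13% and 5.38% without mouse 9_3. Of 7 excitatory neuron markers 1 was lower and 1 higher (0 and 0 without this mouse), with a median log2 fold change of -0.03. Their summed normalized counts were 100215, 101511 and 109994 (lowest, median and highest) in controls, 95882, 103083 and 113775 in treated mice, and 101350 in mouse 9_3. Of 7 inhibitory neuron markers 0 were lower and 3 higher (0 and 2 without mouse 9_3), with a sum of 9723, 10323 and 11066 in controls and 10617, 11264 and 11745 in treated mice, and *Gad1* was the most abundant. Of 6 microglia markers, led by *Csf1r*, 0 were lower and 3 higher (0 and 2 without mouse 9_3), with sums of 3072, 3307 and 3472 against 3327, 3652 and 4068.

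Blood and choroid plexus markers had low levels. Of 5 blood markers 4 were higher at an unadjusted p-value under 0.05 (3 without mouse 9_3), beside 8.86% of all genes, and *Alas2* did not pass. The most abundant was *Hbb-bs*, and the 5 had sums of 278, 350.1 and 448 in controls and 418, 535 and 988 in *R. flavefaciens* mice. Of 3 choroid plexus markers that were measured 1 was higher, *Ttr*, which was at 0 in some mice and reached 657 in 1 treated mouse, while *Clic6* and *Kl* did not pass. The summed choroid plexus markers were 108 in mouse 9_3. Of the markers of astrocytes (6), oligodendrocytes (6), oligodendrocyte precursors (4), endothelial cells and pericytes (6), smooth muscle (3 tested) and striatum (6), 0 were lower or higher at this level. Oligodendrocyte marker sums ranged from 13868 to 37718 in controls and from 12095 to 45393 in treated mice. Striatum marker sums were 1368, 1526 and 1937 (lowest, median and highest) in controls and 1113, 1365 and 4720 in *R. flavefaciens* mice. With both treatments they were 1216, 1493 and 2748. In mouse 9_3 the summed markers lay within the control range in 5 of the 11 lists (excitatory neurons, oligodendrocytes, their precursors, smooth muscle and striatum). They lay below every control in astrocytes, with 46349 against a lowest control of 58408. They lay above every control in inhibitory neurons (11455), microglia (4068), endothelial cells and pericytes (4937, against at most 4777), choroid plexus and blood (627). The part of these cells in the channel gene differences was not tested.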

How the data were processed

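RNA from the mPFC of 24 mice was measured. The deposited signal values are gene counts that the authors divided by 1 size factor per mouse. Per the methods, libraries were made from poly(A) RNA and reads mapped to GRCm38.p5 with Tophat2. The submitters' processing notes list mm9, TopHat2 2.1.0, Bowtie2 2.2.6 and DESeq2 1.18.1. The counting program, its use of strand and the filter on genes are not given in the sources used here, so reads of overlapping antisense genes could not be told apart. Of the non-zero values 99.997% were whole multiples of 1 step per mouse (tolerance 0.0051), which gave the reads and the depth, with a median of 14455107 per mouse (13591497 in controls, 14536037 with duloxetine, 13943370 with *R. flavefaciens* and 14621655.5 with both). All columns belonged to a mouse. None of the 60 pairs of mice of a group agreed within counting error (lowest chi-square per degree of freedom 2.12). Nothing in the labels gives a batch. The mice are separate animals, as the titles number them.

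Genes with a mean of at least 10 entered limma 3.58.1 (R 4.3.3, trended prior) as log2(value + 1). Fold changes are on this scale and understate changes of low genes. All 4 groups entered 1 fit, tests were two-sided, and the Benjamini-Hochberg adjustment ran over 14974 genes within each comparison at a threshold of 0.05. The comparisons that use the controls share those 6 mice. DESeq2 1.42.0 and edgeR 4.0.16 were run on the recovered reads. The tests were checked on simulated counts with the same extra spread beyond counting error for all genes. These held neither a length trend nor a deviating mouse, so the check does not cover those features of the data. Exact permutation tests used all 924 groupings. Lengths are those of the transcript with the longest coding sequence in GENCODE vM21, on GRCm38, matched by gene ID for all 40 channel genes. Python 3.11.15, numpy 2.4.6, pandas 2.3.3, scipy 1.17.1 and matplotlib 3.10.9 were used.

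The members and lists were chosen with earlier results of these data known. Values by mouse are given for the 3 channel genes with the smallest p-value in each of 4 comparisons, the most abundant of each family per kb, and those called by any tool, and for 2 genes of each partner list. Other channel genes named in the text were chosen after their values were seen. Alternatives were no filter or a minimum mean of 50, a pseudocount of 0.1, only the groups compared, quantile normalization, scaling to the 75th percentile, removal of a loess trend (span 0.3) on length or on length and GC, the first label number, whose meaning is not stated, as a random block, DESeq2, edgeR, and leaving out each mouse. The length trend or DESeq2 together with leaving out mouse 9_3 were added after seeing the data. Values of 3 channel genes are not reported here singly, and they remain in the counts and medians.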

Additional observations from a re-analysis of the deposited data

Results flagged for a closer look

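In 80 groups of 6 values, those of the 18 named channel genes and of 2 summaries per mouse in each group, 5 held a mouse far from the other 5, and chance gives about 1 in 20. Of these 5, 4 were *R. flavefaciens* mouse 9_3. It had 2695.5 normalized counts of *Ryr2*, 804.9 of *Unc79* and 1477 of *Cacna1b*, and its median log2 difference over the 40 channel genes from the control means was -0.51. The remaining one was duloxetine mouse 6_2, with 1985 normalized counts of *Cacna1b*, where the other 5 mice of its group had between 2317 and 2489. The 13434125 reads recovered from mouse 9_3 lie between the 12811413 and 14775494 that bound its group.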

How the results depend on the processing

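Shares in parentheses are of all genes in the same setting. For *R. flavefaciens* against control, adjusted calls in limma with the random block numbered 3 (1.48%), in DESeq2 4 (3.26%), and in DESeq2 without mouse 9_3 3 (0.447%). The count lower at an unadjusted p-value under 0.05 was 3 with the length trend off (5.25%), 4 with the length and GC trends off (5.25%), 3 with the length trend off and without mouse 9_3 (3.39%), and 8 with DESeq2 without this mouse (5.58%), and the medians of the first 3 settings were -0.058, -0.039 and -0.025. The cause of these and the other moves was not tested. Leaving out each mouse in turn gave from 0 to 6 calls (6 without *R. flavefaciens* mouse 9_2, 4.11%, 3 without mouse 8_3, 2.85%, and 3 without mouse 9_1, 1.6%), from 10 to 19 lower genes and medians from -0.21 to -0.10. For both treatments against control, DESeq2 without mouse 9_3 called 2, *Cacna1e* and *Ryr2* (3.37%). The lower genes numbered 10 with only the groups compared (11%), 1 after quantile normalization (6.6%), 2 after scaling to the 75th percentile (4.63%), 8 with length and GC trends off (12.6%) and 9 with DESeq2 without mouse 9_3 (10.1%), and from 1 to 10 with mice left out in turn, the 1 without mouse 12_2 (6.12%) and the 10 without mouse 12_3 (9.77%) or 12_4 (10.9%). For both against duloxetine they numbered 4 with only the groups compared (3.63%), 2 with the length trend off (3.9%), 2 with length and GC trends off (4.22%), 2 with the length trend off and without mouse 9_3 (4.2%), 4 with DESeq2 without this mouse (3.86%), and from 0 to 4 with mice left out. For duloxetine against control they numbered 3 with only the groups compared (3.71%), 1 after quantile normalization (1.97%), 1 with the random block (1.98%), and from 0 to 1 with mice left out. For *R. flavefaciens* averaged over duloxetine, DESeq2 called 5 (2.95%) and, without mouse 9_3, 4 (1.68%), the lower genes numbered 5 (6.63%), 5 (6.99%) and 3 (5.36%) in the 3 length settings, and leaving out mice gave from 0 to 1 calls (1 without mouse 8_3, 0.902%, or 9_2, 0.461%). For duloxetine averaged over *R. flavefaciens*, DESeq2 without mouse 9_3 called 1, *Cacnb1* (2.18%), and leaving out mice gave from 0 to 1 (1 without mouse 12_4, 1.74%). Where a share of all genes is of adjusted calls, it counts both directions.

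For *R. flavefaciens* against control the log2 fold change of *Cacnb1* turned to 0.023 after quantile normalization, 0.0042 after scaling to the 75th percentile, 0.0092 with the length trend off and without mouse 9_3, and 0.0048 in DESeq2 without this mouse, and ranged from -0.034 to 0.0092 with mice left out. That of *Cacna1g* turned to 0.040 with the length trend off, 0.011 with length and GC trends off, and 0.025 with the length trend off and without mouse 9_3. With mice left out *Cacna2d3* ranged from -0.032 to 0.066 and *Hcn2* from -0.0093 to 0.067. The adjusted p-value of *Cacna1e* ranged from 0.0224 to 0.57 over all settings, and its log2 fold change from -0.46 to -0.15. No paired analysis was possible because the groups share no replicate numbers.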
